A study of Mus musculus with 8 samples.

Results

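Kupffer cells are the resident macrophages of the liver, and 10 genes that mark them or macrophages in general were followed through livers with and without TrxR1 and Gsr. The genes were chosen by name (Clec4f, Adgre1, Cd68, Csf1r, Marco, Cd5l, Vsig4, C1qa, C1qb and Lyz2) and make up 10 of 12393 genes with a value in the series. Of 22690 probe sets on the array, 14 are paired with exactly 1 of these genes, 3 each for Csf1r and C1qb and 1 for each of the other 8. All 10 genes passed the filter on low values, and all 8 values of each gene lay above its limit, a log2 value of 3.38, below which signals were treated as near background. The lowest of these values was 4.02, for Marco.

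Livers came from 4 wild-type (WT) mice and 4 mice labelled TrxR1/Gsr-null, all female, 4 weeks old and of the C57BL/6J background, with 1 Affymetrix 3′ expression array for each animal. TrxR1, made from the gene Txnrd1, and Gsr are the reductases that keep the cytosolic thioredoxin and glutathione systems reduced. The labels name no other allele, treatment or Cre driver and do not say which liver cells carry the deletions, so whether the macrophages themselves lack either enzyme is not known from them. Values are log2 expression after GCRMA, a fold is 2 to the power of a log2 difference, and ± is the SD over 4 animals unless SE is written. The 4 arrays in each group limit the precision of every value.

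Kupffer cells line the liver sinusoids, where they take up bacteria, old red cells and debris from portal blood. They depend on signalling through the CSF1 receptor, carry pattern and complement receptors on their surface, and secrete C1q, the recognition part of the classical complement pathway. Some of these genes are largely restricted to Kupffer cells in the liver, as Clec4f is in mice, and others are shared with macrophages and monocytes anywhere.

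None of the 10 markers was called, meaning an adjusted p below 0.05 (limma with Benjamini-Hochberg adjustment over 7534 tested genes): 0 were higher and 0 lower in the null livers, while 6.62% of all tested genes were called in either direction. At an unadjusted p below 0.05, 3 markers were lower (Clec4f, Csf1r and Vsig4) and 0 higher. Among all tested genes, 7.92% were lower and 14.9% higher at that level. The null values of Clec4f and Vsig4 all lay below all WT values, a separation seen in that direction in 5.84% of tested genes. The median log2 difference of the 10 markers was -0.15, with 6 negative and 4 positive, and that of all tested genes was 0.096, a gap of -0.25. After quantile normalization, which moved the median of all tested genes to -0.01, the markers held 9 negative and 1 positive differences and the gap was -0.20. The markers' median was -0.02 without WT replicate 4 and -0.01 without null replicate 2, and it reached -0.27 without WT replicate 1. In a fit that pairs the animals by replicate number, Csf1r was called lower (adjusted p = 0.0308), with 3.19% of tested genes called lower in that fit. The labels do not say that same-numbered animals were matched. Liver RNA cannot tell fewer macrophages apart from less of a transcript in each macrophage.

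**Figure D1:**
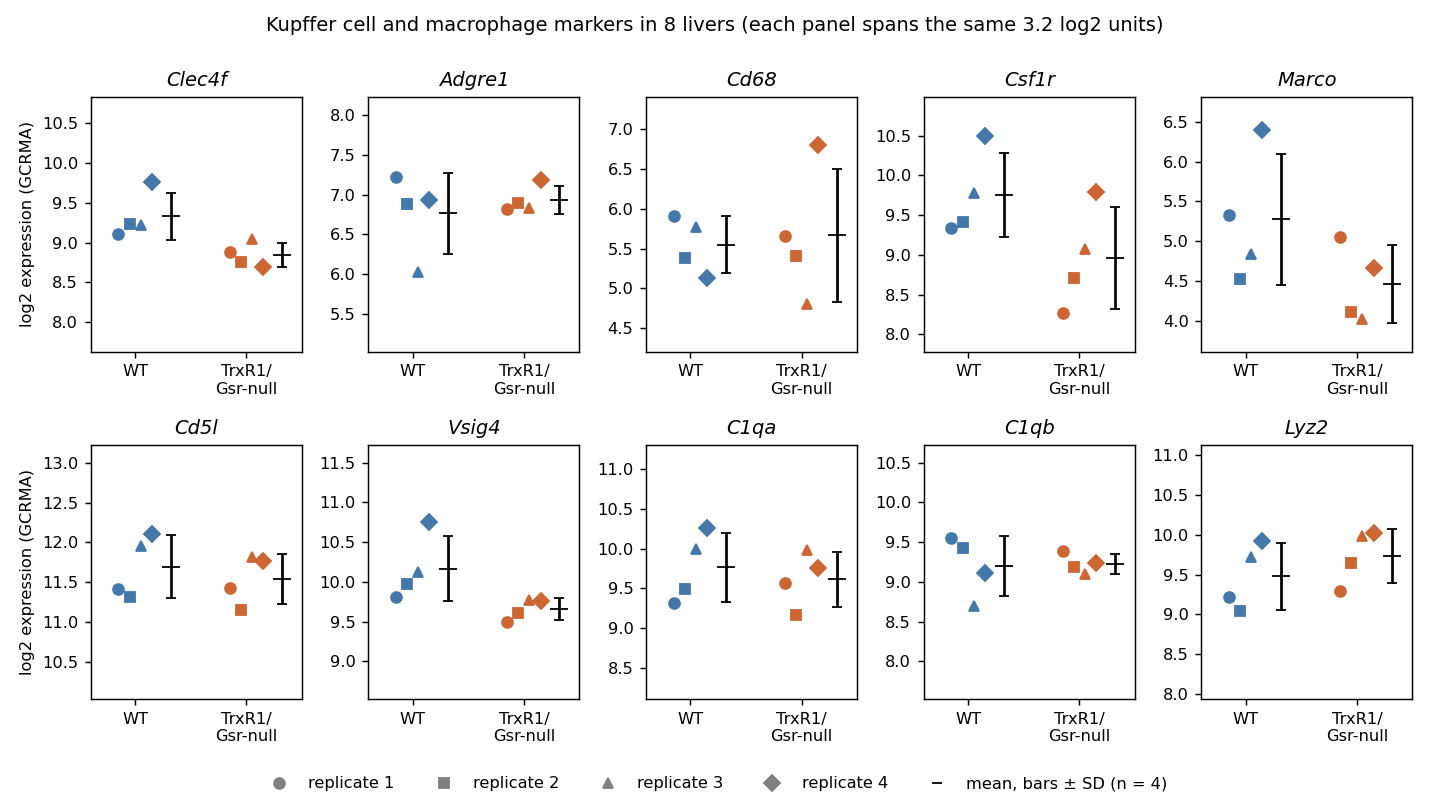
Log2 expression (vertical axes) of the 10 markers in the WT and TrxR1/Gsr-null livers (horizontal axes), with 1 point for each array, its shape giving the replicate number, and the mean ± SD beside each group. The groups are separate for Clec4f and Vsig4, and WT replicate 4 is the highest WT point for Clec4f, Csf1r, Marco, Cd5l, Vsig4, C1qa and Lyz2.

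The arrays differed in ways that bear on small changes. The difference in signal between the 3′ and 5′ probe sets of Actb, a sign of RNA quality, was largest on WT replicates 3 and 4 (1.498 and 1.57 log2 units) and null replicate 3 (1.76), with 1.01 to 1.17 elsewhere. The same difference for Gapdh did not set these arrays apart (-0.23 to -0.35, with -0.26 to -0.45 on 4 of the others) and was lowest on null replicate 4 (-0.70). WT replicates 3 and 4 also had the narrowest distributions, with interquartile ranges of 3.97 and 3.74 against 4.31 to 4.44. The part of these differences in the marker results was not tested beyond the values without these arrays given below. Gsr was 2.23-fold lower in the null livers and Txnrd1 4.31-fold higher, both called (limma adjusted p = 0.00397 and 0.000115). The removed part of each gene is not named in the labels, so the probes may lie outside it. Each of these values is from 1 probe set, the one of highest mean, and any other probe sets of the 2 genes are not given.

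The surface receptors of Kupffer cells, Clec4f, Vsig4 and Marco, averaged lower in the null livers without being called. Clec4f encodes a C-type lectin that binds galactose and N-acetylgalactosamine. Its log2 values were 9.11, 9.23, 9.22 and 9.77 in WT replicates 1 to 4 and 8.88, 8.76, 9.05 and 8.69 in the null replicates. The groups did not overlap, and the highest null value, 9.05, came close to the lowest WT value, 9.11. The mean went from 9.33 ± 0.30 to 8.85 ± 0.16, a log2 difference of -0.49 ± 0.20 SE (limma adjusted p = 0.176), with a 95% interval from -0.92 to -0.05.

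Vsig4 encodes the complement receptor CRIg, which binds C3 fragments on particles in the blood. Its values were 9.81, 9.98, 10.13 and 10.75 in the WT livers and 9.50, 9.60, 9.78 and 9.76 in the null livers. Again the groups did not overlap, and the null values spanned a narrower range than the WT values. The difference was -0.51 ± 0.22 SE (95% interval from -1.0 to -0.01, limma adjusted p = 0.209), a null mean 1.42-fold below the WT mean.

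Marco encodes a scavenger receptor for bacteria and particles. Its values were 5.33, 4.53, 4.84 and 6.40 in WT and 5.05, 4.11, 4.02 and 4.67 in null livers. The groups overlapped, since null replicate 1 lay above WT replicates 2 and 3, and the dimmest of the 10 markers was also the one with the widest WT spread. The difference of -0.81 ± 0.39 SE was the largest in size among the 10 (95% interval from -1.69 to 0.07, limma adjusted p = 0.257). WT replicate 4 was the highest array for all 3 genes, and without it the differences were -0.34 for Clec4f, -0.31 for Vsig4 and -0.44 for Marco. In each of the 4 same-numbered pairs, the null value lay below the WT value for Clec4f, Vsig4 and Marco, but none was called in the paired fit (adjusted p = 0.174, 0.133 and 0.0956). The share of all tested genes that were lower in all 4 pairs was not counted, so this pattern has no background to be read against.

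The stretches upstream of the Clec4f and Vsig4 start sites are shown because these were the markers whose groups did not overlap. The sequences are from RefSeq, build GRCm38.p6, 250 bases ending at the base before the annotated start, on the minus strand at chr6:83656117-83656366 and chrX:96293439-96293688. Capitals mark a match to the antioxidant response element TGACNNNGC, a sequence bound by Nrf2, here on the opposite strand of Clec4f, and Vsig4 has none in this stretch.
Clec4f: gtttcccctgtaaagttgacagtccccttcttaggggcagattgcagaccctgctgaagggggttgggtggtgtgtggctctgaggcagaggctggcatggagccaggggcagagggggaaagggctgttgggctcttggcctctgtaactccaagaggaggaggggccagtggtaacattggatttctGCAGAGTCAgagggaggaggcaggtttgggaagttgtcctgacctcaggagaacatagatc
Vsig4: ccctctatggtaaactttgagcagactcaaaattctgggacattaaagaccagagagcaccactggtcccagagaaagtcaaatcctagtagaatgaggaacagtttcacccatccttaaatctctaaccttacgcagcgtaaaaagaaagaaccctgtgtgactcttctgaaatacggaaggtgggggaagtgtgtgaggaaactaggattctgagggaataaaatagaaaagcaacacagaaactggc
Of the 10 genes, 7 have a promoter in the RefSeq table (all but Adgre1, Csf1r and C1qa). Within 250 bases before to 50 after the start, TGACNNNGC on either strand occurred in 3 of the 7 (Clec4f, C1qb and Lyz2) and in 12.4% of all 32851 promoters. The site of the macrophage factor PU.1, searched as GAGGAAGT on either strand, occurred in 0 of the 7 and in 3.2% of all promoters. These are matches of letters in a short window and not binding sites.

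Cd5l encodes AIM, a secreted scavenger protein that macrophages release and that circulates with IgM. It was bright in every liver, at 11.41, 11.31, 11.96 and 12.10 in WT and 11.43, 11.15, 11.82 and 11.76 in null livers. The groups overlapped through most of their range, while replicates 3 and 4 of both genotypes lay above replicates 1 and 2 of both. The genotype difference was -0.15 ± 0.24 SE (95% interval from -0.69 to 0.39, limma adjusted p = 0.761).

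Csf1r, the receptor for the macrophage growth factors CSF1 and IL-34, was lower in the null animal of every pair at its brightest probe set. The values there were 9.34, 9.41, 9.78 and 10.49 in WT and 8.27, 8.71, 9.08 and 9.79 in null livers. The groups overlapped, with null replicate 4 (9.79) above WT replicates 1 to 3. Values rose from replicate 1 to replicate 4 in both genotypes, and the reason for this was not tested. Pair by pair the null value differed by -1.07, -0.70, -0.70 and -0.70. How many of all tested genes were lower in every pair was not counted. Without pairing the difference was -0.79 ± 0.35 SE (limma adjusted p = 0.212), and with the replicate number as a block it was -0.79 ± 0.17 SE (limma adjusted p = 0.0308), 1.73-fold lower. The paired call was lost when any 1 pair was left out (adjusted p from 0.062 to 0.113).

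The 3 Csf1r probe sets did not give the same size of difference. The second brightest, which can match several transcripts, read 7.81, 7.95, 7.73 and 8.63 in WT and 7.53, 7.54, 6.94 and 7.24 in null livers, with no overlap between the groups. Its difference was -0.72 ± 0.23 SE (limma adjusted p = 0.153 over all 22626 probe sets other than controls, and 0.113 with the block). The dimmest read 7.05, 6.81, 6.47 and 7.42 in WT and 6.71, 6.63, 6.57 and 6.81 in null livers, with overlap, a null value above the WT value in pair 3, and a difference of -0.26 ± 0.20 SE (adjusted p = 0.566, and 0.414 with the block). All 3 averages lay below 0, and the paired call was made at the brightest probe set only (adjusted p = 0.0307 over all probe sets).

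Other genes on a list drawn up around the CSF1 receptor gave no calls. That list is wider than CSF1 receptor signalling, since Cebpa, Csf2ra and Csf2rb are on it and were tested too. Of 10 genes on that list 7 were tested, Csf1r among them, with 0 called (limma) and 1, Csf1r, at an unadjusted p below 0.05. The median log2 difference was -0.15 and turned to 0.0042 without null replicate 3. Csf1, the ligand, averaged 4.27 in WT and 4.54 in null livers (limma adjusted p = 0.577). Spi1, which encodes PU.1, averaged 4.45 and 4.50 (adjusted p = 0.921). Il34, Runx1 and Trem2 did not pass the filter on low values.

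**Figure D2:**
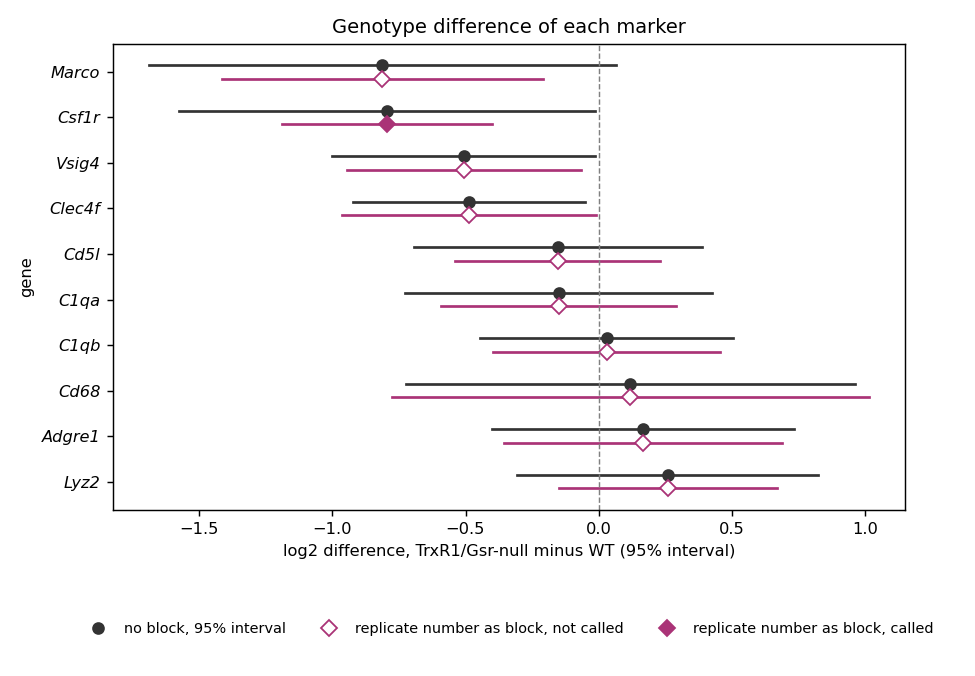
Log2 difference, TrxR1/Gsr-null minus WT (horizontal axis), with its 95% interval for each of the 10 genes (vertical axis), without a block (dark circles) and with the replicate number as a block (diamonds, filled where called). The interval of Csf1r narrows with the block and is the single filled diamond, while Lyz2, Adgre1, Cd68 and C1qb have differences above 0, of which those of Adgre1, Cd68 and C1qb were below 0 after quantile normalization.

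C1q is built from A, B and C chains, whose genes C1qa, C1qb and C1qc are neighbours in the genome. C1qa read 9.32, 9.49, 9.99 and 10.25 in WT and 9.56, 9.16, 9.98 and 9.75 in null livers. The groups overlapped, and as for Cd5l the arrays of replicates 3 and 4 lay above those of replicates 1 and 2 in both genotypes. The difference was -0.15 ± 0.26 SE (95% interval from -0.73 to 0.43, limma adjusted p = 0.785).

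C1qb, at the probe set used for the gene, read 9.55, 9.43, 8.70 and 9.11 in WT and 9.39, 9.19, 9.10 and 9.24 in null livers. WT replicate 3 was the lowest and WT replicate 1 the highest of the 8, so the null values fell inside the WT range. The difference was 0.03 ± 0.21 SE (95% interval from -0.44 to 0.50, limma adjusted p = 0.955). Its sign turned with each array centred on its median (-0.04) or after quantile normalization (-0.08).

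The other 2 C1qb probe sets, of a type that can match unrelated transcripts, averaged 6.94 and 8.15 in WT and 7.30 and 8.38 in null livers (adjusted p = 0.475 and 0.695). On both, null replicate 1 was the highest array, at 8.04 and 9.10, against at most 7.11 and 8.39 on the rest. The third chain, C1qc, read 8.81, 8.48, 9.0 and 9.60 in WT and 8.09, 8.13, 8.35 and 8.59 in null livers, with an overlap of null replicate 4 and WT replicate 2. It differed by -0.68 (limma adjusted p = 0.14, and 0.0574 with the replicate block). It was called lower with replicates 1 and 2 against 3 and 4 as the block (adjusted p = 0.0405), and with the replicate block after quantile normalization (0.0369) or median centring (0.0412). Without a block the 3 chains gave differences from -0.68 to 0.03 and none was called.

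Among markers shared by macrophages in general, Adgre1, Cd68 and Lyz2 averaged slightly higher in the null livers and none was called, with Adgre1 and Cd68 on the other side of 0 after quantile normalization. Csf1r, which macrophages in general also share, averaged lower (-0.79), so the general markers did not have 1 direction. Adgre1 encodes an adhesion G protein-coupled receptor whose staining is a standard mark of mouse macrophages. It read 7.22, 6.88, 6.03 and 6.93 in WT and 6.82, 6.89, 6.84 and 7.19 in null livers. WT replicate 3 stood below all other arrays, and without it the difference changed from 0.17 ± 0.25 SE to -0.08 (limma adjusted p = 0.75 and 0.887). After quantile normalization it was -0.01.

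Cd68 encodes a glycoprotein of macrophage lysosomes and late endosomes. It read 5.91, 5.39, 5.78 and 5.13 in WT and 5.66, 5.41, 4.80 and 6.80 in null livers. The null group held both the lowest and the highest of the 8 values. The difference was 0.12 ± 0.38 SE (95% interval from -0.73 to 0.96, limma adjusted p = 0.895), and it was -0.26 without null replicate 4 and -0.05 after quantile normalization.

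Lyz2 encodes the lysozyme of macrophages and other myeloid cells. It read 9.21, 9.04, 9.73 and 9.93 in WT and 9.29, 9.65, 9.99 and 10.03 in null livers. It was the only marker with a higher null value in all 4 pairs, yet the groups overlapped and replicates 3 and 4 lay above replicates 1 and 2 of both genotypes. How many of all tested genes were higher in all 4 pairs was not counted. The difference was 0.26 ± 0.25 SE (95% interval from -0.31 to 0.83, limma adjusted p = 0.591, and 0.378 with the block). Lyz1, a near-identical gene with which Lyz2 probes may share signal, did not pass the filter on low values.

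The intervals show what 4 animals a group could resolve. For Cd5l, C1qa, C1qb, Adgre1 and Lyz2 the 95% interval ran from a null level of at least 0.604 of the WT level to at most 1.77 times it. For Cd68 it ran from 0.605 to 1.95 times. For Marco and Csf1r the lower ends were 0.31 and 0.336 of the WT level, so a difference of that size in these genes lies within the interval.

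The markers did not move as a single block from liver to liver. Each gene was scaled to mean 0 and SD 1 over the 8 arrays, and the likeness of a pair of genes was taken as the root mean square difference of the scaled values, 0 for identical profiles. Among all pairs of markers the most alike were Cd5l and C1qa (0.248), Clec4f and Vsig4 (0.37) and Csf1r and Vsig4 (0.453). The least alike was Cd5l with C1qb (1.70), and C1qa with C1qb, chains of the same protein, stood at 1.68. Adgre1 and C1qb resembled each other (0.571), with their lowest value on WT replicate 3 in common.

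The mean scaled profile of the 10 markers was highest on WT replicate 4 (2.02) and lowest on null replicate 2 (-1.27). Null replicate 4 was the second highest array, at 0.67, so the arrays did not sort by genotype on the mean profile. Over replicates 3 and 4 of both genotypes, against replicates 1 and 2, Cd5l, C1qa and Lyz2 were higher without overlap, by 0.59, 0.61 and 0.62 on the log2 scale. Csf1r was higher there by 0.85 with overlap, and C1qb was lower by 0.35. The labels name no batch, and this grouping was noticed in these data, so it carries no test.

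**Figure D3:**
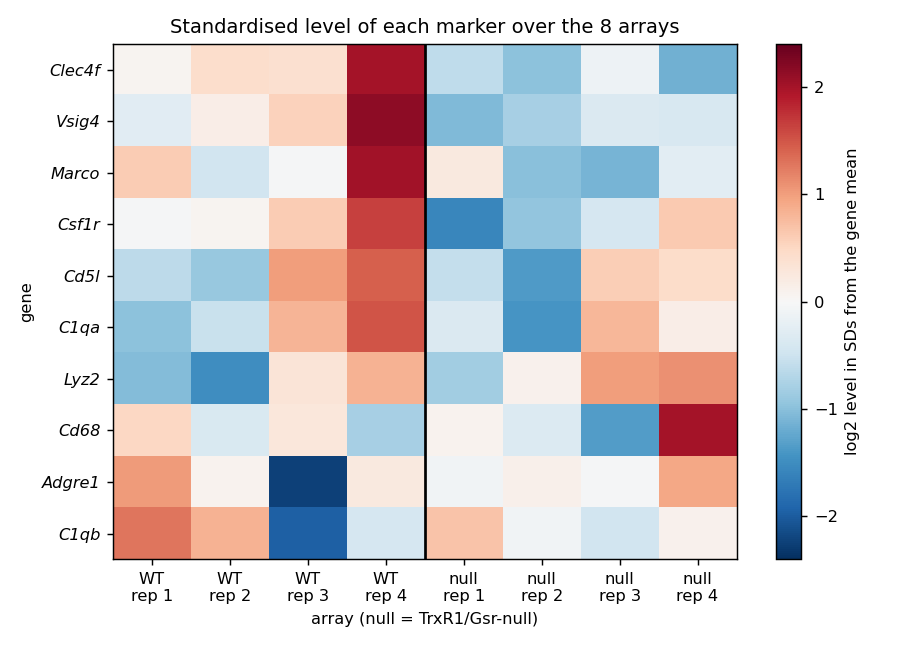
Scaled log2 level, in SDs from each gene's own mean (colour), of the 10 markers (rows) on the 8 arrays (columns, WT left of the line and TrxR1/Gsr-null right). WT replicate 4 is the darkest red column for Clec4f, Vsig4, Marco, Csf1r, Cd5l and C1qa, and Adgre1 and C1qb are lowest on WT replicate 3.

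Among all tested genes, the closest profile to C1qa over the 8 arrays was that of Cd5l (root mean square difference 0.248). The closest to Clec4f was Cd209f, another C-type lectin gene (0.254), which differed by -0.73 between the genotypes without being called (limma adjusted p = 0.134). The nearest to Vsig4 were Cylc1 (0.229) and Ythdf1 (0.239), and the nearest to Csf1r were Higd2a (0.177) and Sgta (0.215). Chchd4 was closest to Lyz2 (0.181), Lpcat1 to Marco (0.293), Tars2 to Adgre1 (0.271), Map1lc3b to Cd68 (0.381), Uqcr10 to Cd5l (0.212) and Ppil4 to C1qb (0.241). For the mean profile of the markers they were Foxo3 (0.293), Chst2 (0.306), Man2c1 (0.311), Anapc5 (0.328) and Nup50 (0.329). With 8 arrays and 7534 genes, small differences of this kind occur for many genes.

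A second list of genes of resident macrophages held more negative than positive differences, with 1 call. Of 20 genes 16 were tested, 12 negative and 4 positive, with a median log2 difference of -0.32 and 5 lower and 2 higher at an unadjusted p below 0.05, where all tested genes had 7.92% lower and 14.9% higher. Other settings called 0 or 1 gene of this list higher and up to 4 lower: 2 lower with array weights (Cfp and Id3), 1 with either block, and 3 and 4 with the replicate block after quantile normalization and median centring (C1qc, Folr2 and Id3 in both, with C6 in the second). Fits on part of the arrays also called Id3 lower (within replicates 1 and 2) and Folr2 lower (without null replicate 4). With the replicate block, Folr2 was called lower without pair 2, and Folr2 and Id3 without pair 4. Msr1, the class A scavenger receptor, was the one called without these changes and was higher, at 7.52, 7.40, 7.33 and 7.2 in WT and 8.31, 8.35, 7.95 and 8.02 in null livers. The groups did not overlap (1.73-fold, limma adjusted p = 0.0253), while the scavenger receptor Marco averaged lower. Msr1 was called in 3 of 8 fits that left out a single array (adjusted p up to 0.0881 when WT replicate 2, 3 or 4 or null replicate 1 or 2 was missing), and it was not called without both WT replicates 3 and 4 or when its probe sets were averaged. Folr2, a folate receptor of resident macrophages, singled out here after its values were seen, read 5.29, 5.80, 5.68 and 6.16 in WT and 2.37, 4.85, 2.53 and 5.28 in null livers. Its groups did not overlap, 2 of its null values lay below the low-value limit, and it was called in the paired fit (adjusted p = 0.0297) but not without pairing (0.089). Without null replicate 4, Folr2 was called in the unpaired fit too (limma adjusted p = 0.0392). It was not called with replicates 1 and 2 against 3 and 4 as the block (0.067).

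Genes common to many myeloid cells had 1 call in each direction. Of 22 genes 19 were tested, 13 positive and 6 negative with a median log2 difference of 0.15, which became 10 and 9 after quantile normalization or median centring, with medians of 0.0019 and 0.087. The median was 0.04 without WT replicate 3. Lgals3, the lectin galectin-3, was called higher, from 6.88, 6.15, 5.81 and 5.12 in WT to 7.41, 7.72, 7.24 and 8.99 in null livers (3.61-fold, limma adjusted p = 0.034, and 0.0515 with the replicate block). Cd52, a small surface glycoprotein of leukocytes, was called lower, from 6.97, 7.27, 6.73 and 7.18 to 6.35, 6.44, 6.08 and 6.09 (1.74-fold, limma adjusted p = 0.0338). Neither gene's groups overlapped. When dim genes were kept in the fit, Lgals3 was not called (adjusted p = 0.0528). With 1 array left out in turn, Lgals3 was called in 2 and Cd52 in 1 of 8 fits (adjusted p up to 0.0877 and 0.0904), and neither was called without both WT replicates 3 and 4. Ptprc, the pan-leukocyte antigen CD45, averaged 7.21 in WT and 7.48 in null livers (adjusted p = 0.408), and Cd14, an endotoxin co-receptor with WT values on both sides of the low-value limit, 3.47 and 5.02 (adjusted p = 0.051, and 0.0324 with the block).

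Lysosomal genes, which macrophages share with hepatocytes, had 6 positive and 6 negative differences among 12 tested, with 1 call. Hexa, a lysosomal hexosaminidase subunit, was called higher, from 9.38, 9.19, 8.90 and 8.02 in WT to 10.00, 10.18, 9.74 and 10.19 in null livers (2.23-fold, limma adjusted p = 0.0392). That call was lost in 6 of 8 fits with 1 array left out (adjusted p up to 0.11), without both WT replicates 3 and 4, and when dim genes were kept in the fit (0.054). Ctsz, also on this list, was called higher with replicates 1 and 2 against 3 and 4 as the block (limma adjusted p = 0.0328). Of 8 tested complement genes, C1qc included, 0 were called (limma, with 1 lower at an unadjusted p below 0.05), 7 differences were negative and the median was -0.25. The same 3 alternatives that called C1qc lower made it the 1 called gene of this list. C1ra and C1s1, which encode the proteases that bind C1q, averaged 10.27 and 11.30 in WT and 10.10 and 10.95 in null livers (adjusted p = 0.644 and 0.316).

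**Figure D4:**
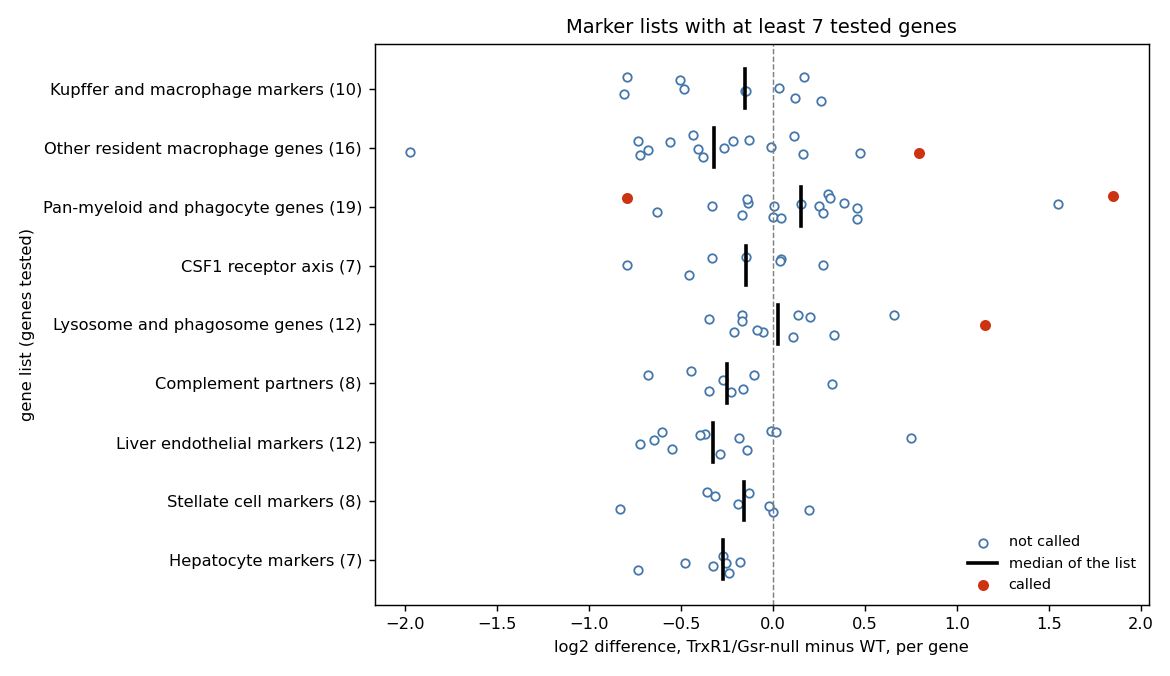
Log2 difference, TrxR1/Gsr-null minus WT (horizontal axis), of each tested gene in the marker lists that had at least 7 tested genes (vertical axis, number tested in brackets), with called genes filled and the list's median as a bar. The medians of 7 lists lie below 0 and those of the pan-myeloid and lysosome lists above it (that of the lysosome list was below 0 after quantile normalization or median centring), and the called genes are Msr1, Lgals3, Cd52 and Hexa.

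Markers of other liver cells were read the same way beside the macrophage markers. Of 12 endothelial markers 10 differences were negative, with a median of -0.33 and 0 called (limma, with 2 lower at an unadjusted p below 0.05). Pecam1, the adhesion molecule CD31, averaged 4.08 in WT and 3.48 in null livers, Kdr, a VEGF receptor, 6.74 and 6.02, and Stab2, an endothelial scavenger receptor, 8.72 and 8.07. Stab2 was called lower with the replicate block (limma adjusted p = 0.0479, and 0.0722 without it), and up to 2 genes of the list were called lower and up to 1 higher under other settings. Their mean log2 level lay between 6.79 and 7.27 on the WT arrays and between 6.59 and 6.88 on the null arrays. Of 8 stellate cell markers 7 were negative (median -0.16, mean level 7.23 to 7.72 in WT and 6.89 to 7.55 in null livers), and of 7 hepatocyte markers all 7 (median -0.27, mean level 12.99 to 13.19 and 12.53 to 12.91), with 0 called in either list and 1 lower in each at an unadjusted p below 0.05. Among them Lrat, which makes retinyl esters in stellate cells, averaged 3.96 and 3.60, and Alb, the gene of albumin, 14.32 and 13.85 (adjusted p = 0.567 and 0.324). Other settings did call a gene in each list. Acta2, a stellate marker, was lower after quantile normalization (limma adjusted p = 0.0237) or median centring (0.0368), and in further settings. Tat, a hepatocyte marker, was lower with array weights (limma adjusted p = 0.014) and in further settings. The 10 macrophage markers had a mean level of 8.47 to 9.09 in WT and 8.26 to 8.77 in null livers. The part of these other cell types in the macrophage marker differences was not tested.

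Markers of blood-borne cells were mostly near background. Of 9 measured markers of monocyte-derived cells 6 did not pass the filter, Ccr2 and Itgam among them, and 0 of the 3 tested were called (limma, with 1 higher at an unadjusted p below 0.05). Their mean level was 3.19 to 3.63 in WT and 3.45 to 3.74 in null livers. The gene below that unadjusted level was S100a6, averaging 4.44 in WT and 5.75 in null livers with overlap (limma adjusted p = 0.111). Other settings called S100a6 higher, with array weights (limma adjusted p = 0.00547), within replicates 1 and 2 (0.00699) or without null replicate 3 (0.00819). Of 9 neutrophil markers 6 did not pass, including the granule genes Ngp, Camp, Ltf, Mpo and Elane, and the mean level was 2.70 to 3.07 in WT and 3.04 to 3.17 in null livers. Of the 3 tested 0 were called, with 2 higher at an unadjusted p below 0.05 (14.9% over all tested genes). Both of these, S100a8 and S100a9, were called higher with array weights and with replicates 1 and 2 against 3 and 4 as the block. Without WT replicate 1 both were called higher too (limma adjusted p = 0.00715 and 0.0111). Median centring, averaging each gene's probe sets or another variance model also called S100a8 higher (limma adjusted p = 0.0432, 0.0496 and 0.0473). S100a8, a calcium-binding protein of neutrophils and monocytes, read 5.12, 4.13, 4.04 and 3.14 in WT and 5.40, 5.57, 5.28 and 5.38 in null livers, without overlap and with 1 WT value below the limit (limma adjusted p = 0.0541, and 0.0382 with the block). In the B cell, T and NK cell, dendritic and erythroid lists 2, 1, 1 and 3 genes were tested and 0 were called (limma), with 1 lower in the T and NK cell list at an unadjusted p below 0.05. Of 2 tested bile duct markers Epcam, an adhesion molecule of bile duct cells, was called higher (limma adjusted p = 0.041). All 4 of its WT values (2.51 to 3.31) and 1 null value lay below the low-value limit, so it passed the filter through the null group and its fold is not given. The call was lost when dim genes were kept in the fit (adjusted p = 0.0513), in 6 of 8 fits with 1 array left out (adjusted p up to 0.125) and without both WT replicates 3 and 4.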

How the data were processed

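The deposited table holds 1 log2 expression value for each of 22690 probe sets on each of 8 arrays. The authors made these values with GCRMA, per the submitters' processing notes; its version and settings are not stated there, and the log2 scale was read from the values. GCRMA draws values near background together, so differences of dim genes depend on it.

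Probe sets were named from the platform annotation, with 20351 of 20380 probe sets of a single gene matched to RefSeq symbols (GRCm38.p6). Each gene kept its probe set of highest mean (a type ending in _x_at only if no other existed), giving 12393 genes. Genes in the lowest 40% by mean were dropped unless at least 4 arrays exceeded that limit (3.38), leaving 7534. The genotypes were tested with limma (version 3.58.1, R 4.3.3; lmFit, eBayes, two-sided, Benjamini-Hochberg), with calls at an adjusted p below 0.05, and the script was tested on simulated data. Every marker probe set was also tested among all 22626 probe sets that are not controls.

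The labels call each array a biological replicate with its own animal. None of the arrays were identical (highest correlation 0.994). Animals that share a replicate number in the titles deviated together from their group means (correlations of 0.214 to 0.374 over genes, above 0.1 in every pair). Animals of unlike number were not compared in this way, so these correlations cannot show that the number itself marks a pair. The main fit has no pairs, and same-numbered animals were treated as pairs only in fits with the replicate number as a block. The labels do not say that a number marks a shared litter, day or batch, so the pairing rests on these same values. The fit with that number as a block stands beside a result whose call it changes. Markers and lists were chosen with earlier results of these data known. The rule for named genes took all markers, Txnrd1 and Gsr, up to 4 called genes per list and direction, the first measured genes of lists without calls (some are given by count only), and the nearest profiles. Other genes named, Spi1, Ptprc, Cd14 and Folr2 among them, were chosen after their values were seen. So were Cfp, Id3, C6, Ctsz, S100a6, Acta2 and Tat, which other settings called. Filters, scaling, probe set choice, variance model and left-out arrays were varied. The closing section gives the effects on the markers and on the count of all genes. Effects on genes of other lists are given beside those genes for part of the settings.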

Additional observations from a re-analysis of the deposited data

Results flagged for a closer look

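Over the 14 marker probe sets and both genotypes, 28 groups of 4 arrays were searched for an array that stood apart from the other 3 by Dixon's test, which marks about 1 group in 20 by chance. It marked 1, TrxR1/Gsr-null replicate 1 at a C1qb probe set of the type that can match unrelated transcripts, with a log2 value of 8.04 against 7.02 to 7.11 on the other 3 null arrays. The probe set used for C1qb gave 9.39 on the same array, against 9.10 to 9.24 on the other null arrays.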

How the results depend on the processing

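Without a block, 0 markers were called higher or lower under each alternative filter, probe set rule, scaling and variance model and with any 1 array left out. With the replicate block 1 marker, Csf1r, was called lower (adjusted p = 0.0308), also 1 with replicates 1 and 2 against 3 and 4 as the block (0.0477), and no other marker's call changed. In alternatives chosen after seeing the data, 1 was called lower with the replicate block after quantile normalization (Csf1r, 0.0156) or median centring (0.0187), and 0 with any pair left out. Csf1r differed by -0.89 within replicates 1 and 2 and by -0.70 within replicates 3 and 4, and by -0.41 without WT replicates 3 and 4, not called in any (adjusted p = 0.0568, 0.313 and 0.59).

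Clec4f, Csf1r, Marco, Vsig4 and Lyz2 kept their direction under all alternatives run. Quantile normalization, with or without the block, gave -0.014 for Adgre1, -0.052 for Cd68 and -0.077 for C1qb, and median centring gave -0.035 for C1qb. Without both WT replicates 3 and 4 the differences were -0.12 for Adgre1, 0.18 for Cd5l, 0.21 for C1qa and -0.26 for C1qb. Within replicates 1 and 2 they were -0.19 for Adgre1, -0.11 for Cd68 and -0.20 for C1qb. Array weights gave -0.14 for C1qb. With the replicate block and pair 3 left out Adgre1 was -0.045 and C1qb -0.090, and with pair 4 left out Cd68 was -0.40 and C1qb -0.0034. With 1 array left out the range was -0.077 to 0.32 for Adgre1, -0.26 to 0.41 for Cd68, -0.30 to 0.013 for C1qa and -0.13 to 0.15 for C1qb. The cause was not tested.

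Over all tested genes 337 were called higher and 162 lower, and 313 and 271 after quantile normalization, 329 and 210 after median centring, 578 and 428 with array weights, 454 and 240 with the replicate block, 647 and 334 with replicates 1 and 2 against 3 and 4 as the block, and 187 and 138 without WT replicates 3 and 4. Marco and Cd68, the dimmest markers, had the largest SEs of the 10 (0.39 and 0.38). With 4 arrays a group, a marker was not called even where its difference passed 0.79 in size (Csf1r without the block, and Marco).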
